A study of Mus musculus with 28 samples.

Results

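The 9 genes described here encode proteins of cAMP and G protein signalling that are known for their level in the striatum: Gnal, Gng7, Adcy5, Pde10a, Pde1b, Rgs9, Rasd2, Ppp1r1b and Arpp21. They were named for that role, not by a threshold on measured values, and each symbol was matched to 1 Ensembl identifier of the count files. The files listed 29878 genes, of which 14979 were tested, and all 9 passed the filter on low counts. Their lowest counts in any library ran from 23 for Rgs9 to 647 for Gnal. Because the genes were chosen as striatal genes, the direction of their differences between striatum and other regions is part of the choice and is given as a description.

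Medium spiny neurons, the main cell type of the striatum, receive dopamine through receptors that either raise or lower cAMP. Gnal encodes the stimulatory alpha subunit Gαolf, which in these cells couples dopamine and adenosine receptors to adenylyl cyclase 5, and Gng7 encodes a gamma subunit of the same G protein. Phosphodiesterases break cAMP and cGMP down, RGS9 speeds the return of G proteins to their inactive state, and protein kinase A, which cAMP activates, phosphorylates DARPP-32 and ARPP-21.

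In the annotation of the build GRCm38, Gnal (ENSMUSG00000024524) lay on chromosome 18 from 67088216 to 67226792 on the + strand and Gng7 (ENSMUSG00000048240) on chromosome 10 from 80948624 to 81014945 on the - strand. Adcy5 (ENSMUSG00000022840) lay on chromosome 16 from 35154877 to 35305738 (+), Pde10a (ENSMUSG00000023868) on chromosome 17 from 8525372 to 8986648 (+) and Pde1b (ENSMUSG00000022489) on chromosome 15 from 103503034 to 103530052 (+). Rgs9 (ENSMUSG00000020599) lay on chromosome 11 from 109225355 to 109298129 (-), Rasd2 (ENSMUSG00000034472) on chromosome 8 from 75213944 to 75224113 (+), Ppp1r1b (ENSMUSG00000061718) on chromosome 11 from 98348404 to 98357796 (+) and Arpp21 (ENSMUSG00000032503) on chromosome 9 from 112065091 to 112235938 (-). The 9 genes thus lay on 8 chromosomes. Exons of another gene on the other strand overlapped 852 exon bases of Gnal, 580 of Arpp21 and 460 of Ppp1r1b, and 0 of the other 6 genes.

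RNA was sequenced from dissected brain regions of mice 2 to 3 months old that were labelled wild type (WT), heterozygous (het) or knockout (KO) for Hdc, the gene of histidine decarboxylase, the enzyme that makes histamine. The numbers of WT, het and KO libraries were 2, 3 and 2 in dorsal striatum, 3, 3 and 2 in ventral striatum, 1, 2 and 2 in motor cortex and 3, 3 and 2 in hypothalamus, 28 in all. A library is named here by the number and letter of its label, with b for dorsal striatum, a for ventral striatum, d for motor cortex and f for hypothalamus. Counts on genes ran from 3536802 to 5150280 per library with a median of 4392301.5, and 44.78% to 54.22% of all tallied reads fell on genes. By region the counts ran from 3912708 to 5150280 in dorsal striatum, 3536802 to 5064759 in ventral striatum, 3732822 to 4507411 in motor cortex and 3861785 to 4901109 in hypothalamus. Levels are given as CPM scaled by TMM factors. The labels do not state whether libraries of 1 group came from separate animals, so each p-value measures the spread between these samples.

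Hdc itself was read first. In dorsal striatum its counts were 3 and 0 in the WT libraries, 33, 17 and 21 in het and 40 and 31 in KO. In ventral striatum they were 1, 6 and 0 in WT, 28, 20 and 23 in het and 49 and 51 in KO, and in motor cortex 0 in WT, 20 and 21 in het and 45 and 29 in KO. In these 3 regions every het and KO library was therefore above every WT library. In hypothalamus the counts were 79, 111 and 94 in WT, 79, 117 and 78 in het and 54 and 66 in KO. The fitted log2 difference of KO over WT was 4.39 ± 0.86 (SE) in dorsal striatum (edgeR adjusted p = 1.52e-11), 4.21 ± 0.58 in ventral striatum (adjusted p = 1.3e-20) and -0.40 ± 0.21 in hypothalamus (adjusted p = 0.84). The count covers all exons of the gene and does not test the deleted part, so the genotypes used below are those of the labels.

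The region labels were read against marker genes. The 12 spiny neuron markers summed to 4640 to 6140 CPM in dorsal striatum and 1530 to 3380 CPM in ventral striatum, with Penk, the gene of proenkephalin, as the most abundant. In motor cortex they summed to 679 to 721 CPM and in hypothalamus to 362 to 470 CPM. The 9 cortical excitatory neuron markers, led by the vesicular glutamate transporter gene Slc17a7, summed to 2110 to 2300 CPM in motor cortex. The 12 hypothalamic neuron markers, led by Pmch, summed to 192 to 346 CPM in hypothalamus and to at most 14.6 CPM elsewhere. No marker of these lists was at 0 throughout the region it defines.

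Several libraries stood apart from others of their region. Library 7b, dorsal striatum labelled KO, held 442 CPM of the 9 cortical markers, with counts on 9 of 9 and Slc17a7 at 178 CPM. The WT library 2b held 191 CPM with Slc17a7 at 56.4 CPM, and the other 5 dorsal striatum libraries 90.7 to 139 CPM. Library 8b, also dorsal striatum labelled KO, held 2860 CPM of the 9 choroid plexus markers, with counts on 9 of 9 and the transthyretin gene Ttr at 2700 CPM, against 3.00 to 67.0 CPM in the other dorsal striatum libraries. In hypothalamus the KO library 8f held 567 CPM of the cortical markers, with Slc17a7 at 198 CPM, against 212 to 334 CPM in the other 7. In ventral striatum the WT library 3a (1940 CPM) and the KO library 8a (1530 CPM) were the lowest in spiny neuron markers, against 2450 to 3380 CPM in the other 6. The part of these differences in the results below was not tested, and values without them are given beside many of the results below.

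**Figure D1:**
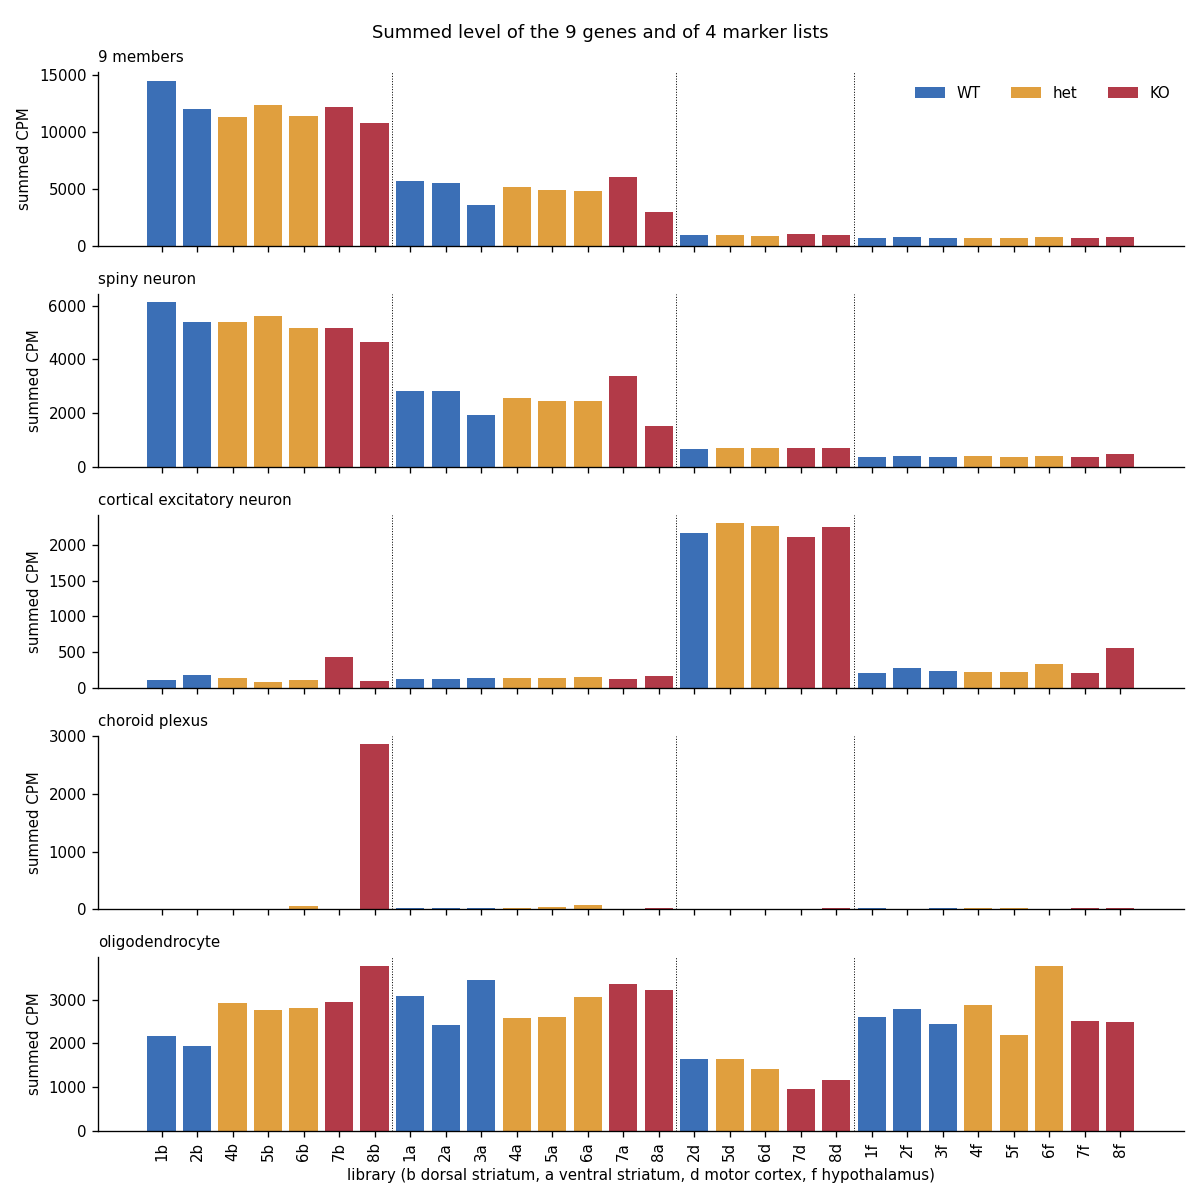
Summed level in CPM (linear axes, bars from 0) of the 9 genes and of 4 marker lists in each of 28 libraries, coloured by labelled genotype and ordered by region. Library 8b stands apart in choroid plexus markers at 2860 CPM, 7b and 8f in cortical markers at 442 and 567 CPM, and 3a and 8a in the 9 genes and spiny neuron markers.

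Together the 9 genes summed to 12100 ± 1210 CPM (SD, n = 7) in dorsal striatum, 4830 ± 1060 CPM (n = 8) in ventral striatum, 955 ± 41.2 CPM (n = 5) in motor cortex and 713 ± 32.7 CPM (n = 8) in hypothalamus. They took 1.01% to 1.18% of all counts on genes in the dorsal striatum libraries and 0.0773% to 0.088% in the hypothalamus libraries. The ranges of the summed level did not overlap between any pair of the 4 regions. In bulk tissue, fewer cells of a type and less RNA per cell cannot be told apart.

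**Figure D2:**
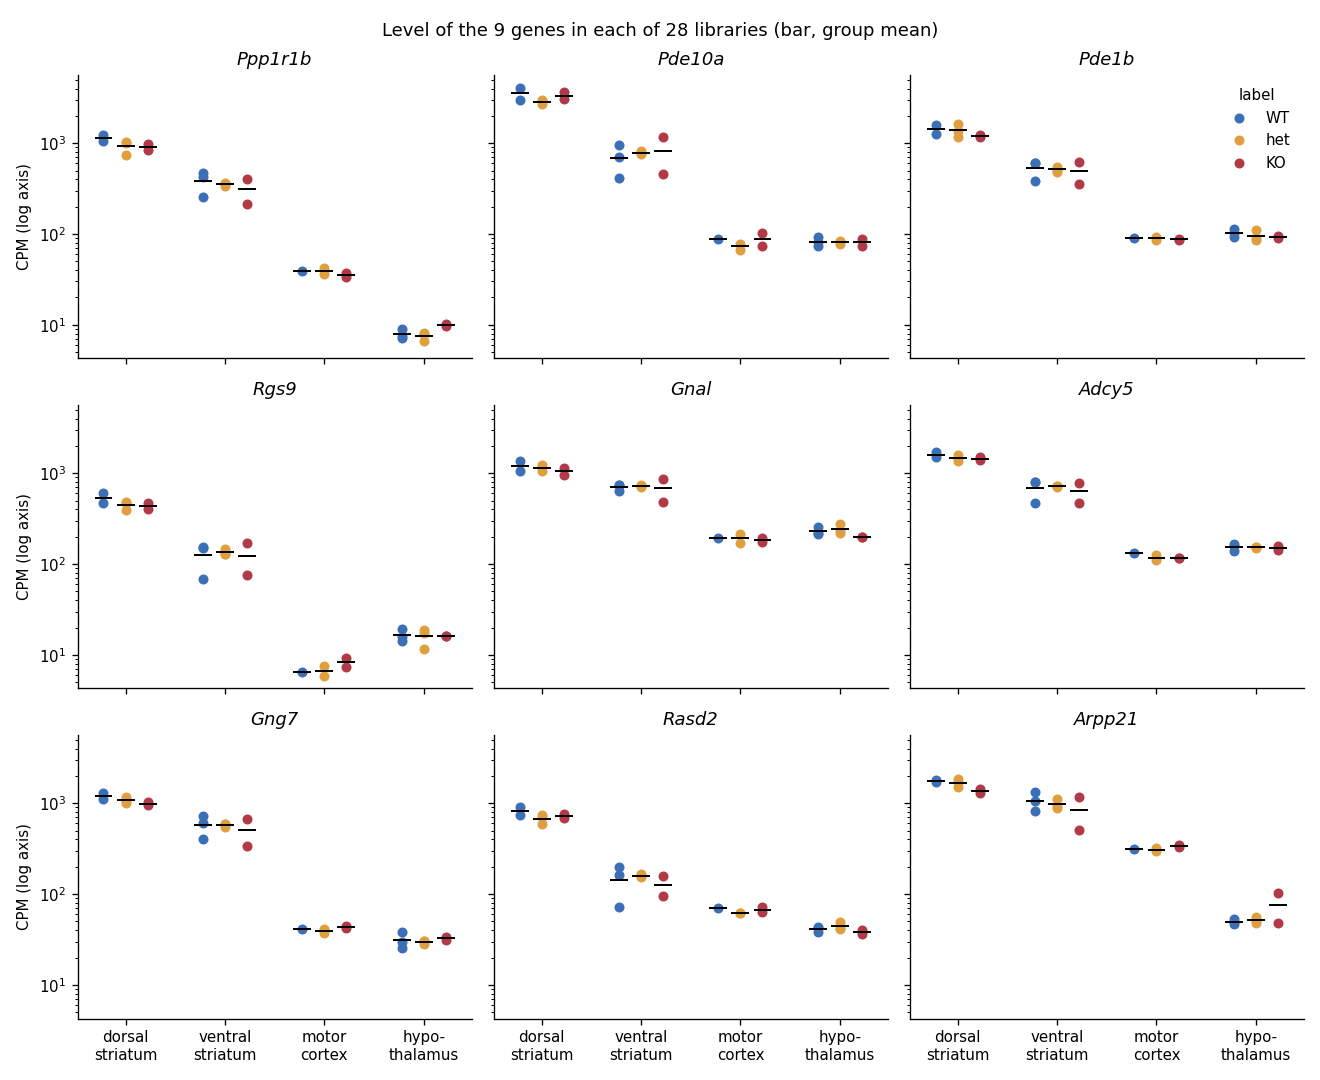
Level of each of the 9 genes in CPM (log axis) in every library, by region and labelled genotype, with a bar at each group mean. All 9 genes were highest in dorsal striatum and second in ventral striatum by region mean.

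Among the G protein subunits, Gnal ran from 965 through a median of 1140 to 1360 CPM in the 7 dorsal striatum libraries and from 487 through 737 to 876 CPM in the 8 of ventral striatum. Its levels were 190 ± 16.7 CPM (SD, n = 5) in motor cortex and 227 ± 26.2 CPM (n = 8) in hypothalamus. These last ranges, 171 to 212 and 200 to 273 CPM, overlapped. Between dorsal striatum and hypothalamus Gnal had the smallest contrast of the 9 genes, a log2 difference of 2.35 ± 0.10 (SE). Gng7, the partner gamma subunit, ran from 947 through 1060 to 1290 CPM in dorsal striatum and from 341 through 587 to 729 CPM in ventral striatum. It was at 41.2 ± 2.93 CPM in motor cortex and 31.0 ± 3.74 CPM in hypothalamus. The subunits of this G protein therefore differed in contrast, with Gng7 at a log2 difference of 4.73 ± 0.15 (SE) and Gnal at 2.58 ± 0.12 between dorsal striatum and motor cortex.

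Adcy5, the adenylyl cyclase that Gαolf stimulates, ran from 1350 through a median of 1500 to 1720 CPM in dorsal striatum and from 474 through 728 to 807 CPM in ventral striatum. Its level was 121 ± 7.98 CPM (SD, n = 5) in motor cortex and 153 ± 8.78 CPM (n = 8) in hypothalamus, and no library of dorsal striatum overlapped any other region. The log2 difference of dorsal striatum was 3.62 ± 0.12 (SE) over motor cortex and 3.30 ± 0.10 over hypothalamus.

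Promoter windows of the 9 genes were read for letters that regulators of transcription are known to bind. RefSeq (build GRCm38.p6) gave 19 windows of 300 bases, 250 before and 50 after a start, for 7 of the 9 genes, with none for Ppp1r1b and Gnal. Searched on both strands were the cAMP response element TGACGTCA, its core TGACG, which lies within the longer form, the TATA box TATAAA and the GC box GGGCGG. Of all 32851 windows in the table these were held by 1.79%, 20.8%, 13.6% and 35.7%. Among the windows of the 9 genes, 0 held TGACGTCA, 4 held TGACG (in Arpp21 and Gng7), 2 held TATAAA (in Pde1b and Rgs9) and 6 held GGGCGG (in Adcy5, Gng7, Pde10a, Pde1b and Rgs9). Arpp21 gave more windows than any other of these genes, and some of its windows overlap. Those at chr9:112217212-112217511 and chr9:112217302-112217601 hold the same TGACG. These are therefore counts of windows, not of separate sites, and are not read against the shares of all windows. The 3 windows of Adcy5, Rasd2 and Rgs9 are printed because each of these genes had a single window and their match patterns differed. Adcy5 is at chr16:35154614-35154913 (+), Rasd2 at chr8:75213694-75213993 (+) and Rgs9 at chr11:109298132-109298431 (-), each 5′ to 3′ on the strand of the gene, with capitals for matches.
Adcy5: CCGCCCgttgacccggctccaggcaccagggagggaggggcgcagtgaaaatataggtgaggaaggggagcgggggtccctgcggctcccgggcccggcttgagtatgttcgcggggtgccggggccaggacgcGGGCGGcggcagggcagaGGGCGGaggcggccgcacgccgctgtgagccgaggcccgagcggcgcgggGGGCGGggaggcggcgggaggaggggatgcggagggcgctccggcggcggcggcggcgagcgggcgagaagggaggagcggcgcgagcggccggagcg
Rasd2: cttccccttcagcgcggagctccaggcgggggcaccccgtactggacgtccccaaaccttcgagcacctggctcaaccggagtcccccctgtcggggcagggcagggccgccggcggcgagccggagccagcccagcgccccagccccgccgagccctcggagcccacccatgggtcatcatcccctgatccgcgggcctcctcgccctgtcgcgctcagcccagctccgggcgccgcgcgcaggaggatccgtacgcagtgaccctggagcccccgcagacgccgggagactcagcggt
Rgs9: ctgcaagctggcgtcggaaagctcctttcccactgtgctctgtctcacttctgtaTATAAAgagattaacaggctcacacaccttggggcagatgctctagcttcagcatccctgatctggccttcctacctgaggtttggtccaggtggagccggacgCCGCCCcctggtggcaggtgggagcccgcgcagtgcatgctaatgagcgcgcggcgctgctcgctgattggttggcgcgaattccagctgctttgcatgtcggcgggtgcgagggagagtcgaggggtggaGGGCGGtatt

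Counted from 1 at the 5′ end, GC box matches began at positions 1, 135, 153 and 203 in Adcy5 and at 160 and 291 in Rgs9, which also held TATAAA from position 56. Rasd2 held none of these letters. The G and C content was 79.0% in Adcy5, 74.7% in Rasd2 and 60.3% in Rgs9, against a median of 52.7% over all windows, and Adcy5 held 44 CpG pairs and Rasd2 33. A match is a description of the letters only.

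Pde10a, a phosphodiesterase of cAMP and cGMP, ran from 2690 through a median of 3010 to 4090 CPM in dorsal striatum and from 409 through 771 to 1170 CPM in ventral striatum. In motor cortex it was at 81.9 ± 13.4 CPM (SD, n = 5) and in hypothalamus at 81.7 ± 6.69 CPM (n = 8), levels that did not differ beyond their spread. Pde1b, a phosphodiesterase activated by calcium and calmodulin, ran from 1170 through 1270 to 1610 CPM in dorsal striatum and from 359 through 529 to 622 CPM in ventral striatum. Its motor cortex level, 88.7 ± 2.29 CPM, lay within the hypothalamic range of 85.6 to 113 CPM. Both phosphodiesterases thus separated the striatal regions from each other and from the rest, with no separation of motor cortex from hypothalamus.

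Rgs9, the regulator of G protein signalling, whose promoter window with a TATAAA match is printed above, ran from 393 through a median of 471 to 602 CPM in dorsal striatum and from 68.0 through 138 to 170 CPM in ventral striatum. It was at 7.29 ± 1.24 CPM (SD, n = 5) in motor cortex and 16.2 ± 2.52 CPM (n = 8) in hypothalamus, the reverse order of these 2 regions to Ppp1r1b, Gng7, Rasd2 and Arpp21. Its log2 difference of dorsal striatum over motor cortex, 6.05 ± 0.21 (SE), was the highest of the 9 genes. Rasd2, the small G protein Rhes, ran from 585 through 736 to 905 CPM in dorsal striatum and from 71.3 through 158 to 198 CPM in ventral striatum, with 65.8 ± 4.89 CPM in motor cortex and 41.8 ± 3.83 CPM in hypothalamus. The highest motor cortex library of Rasd2, at 71.4 CPM, overlapped the lowest of ventral striatum, 3a. Rasd2 had the largest contrast of the 9 genes between the striatal regions, a log2 difference of 2.37 ± 0.13 (SE) for dorsal over ventral.

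Ppp1r1b encodes DARPP-32, which inhibits protein phosphatase 1 once protein kinase A has phosphorylated it. It ran from 750 through a median of 1010 to 1240 CPM in dorsal striatum and from 213 through 360 to 471 CPM in ventral striatum. Its levels of 37.7 ± 2.98 CPM (SD, n = 5) in motor cortex and 8.29 ± 1.22 CPM (n = 8) in hypothalamus were apart, and its log2 difference of dorsal striatum over hypothalamus, 6.88 ± 0.15 (SE), was the highest of the 9 genes. Arpp21, another substrate of protein kinase A, ran from 1290 through 1700 to 1860 CPM in dorsal striatum and from 506 through 1000 to 1320 CPM in ventral striatum, so these ranges overlapped. In motor cortex it was at 322 ± 20.5 CPM. In hypothalamus 7 libraries held 47.0 to 55.7 CPM and library 8f held 102 CPM.

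Levels of different genes were compared per kilobase of exon, counting every annotated exon of a gene, from 2928 bases for Ppp1r1b to 17428 for Arpp21. Exons not used in these samples would lower a gene's value on this scale, which was not tested. On that scale the dorsal striatum order was Ppp1r1b (337 ± 54.2 CPM per kilobase, SD, n = 7), Gng7 (288 ± 30.5), Pde10a (249 ± 37.8) and Pde1b (249 ± 34.2), Rasd2 (230 ± 30.4), Adcy5 (210 ± 16.7), Gnal (102 ± 11.6), Arpp21 (92.8 ± 11.9) and Rgs9 (73.6 ± 10.6). Neighbours in this order differed by less than the larger SD of the pair, apart from the steps from Gng7 to Pde10a, from Adcy5 to Gnal and from Arpp21 to Rgs9. In ventral striatum the highest level per kilobase was that of Gng7 (148 ± 34.0, with Ppp1r1b at 121 ± 29.3, a lead within the SD) and the lowest that of Rgs9. Rasd2 led in motor cortex (20.7 CPM per kilobase) and Adcy5 in hypothalamus (21.3), so the order of the 9 genes was not the same between regions. The lead of Adcy5 over Gnal (20.3 ± 2.35) lay within the SD of Gnal. With library size alone in place of TMM the dorsal striatum means were 186 for Adcy5 and 254 for Gng7.

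Each region was compared with each other one, averaged over genotypes, with the likelihood ratio test of edgeR and p-values adjusted over all 14979 genes. A gene is called when its adjusted p is under 0.05. In dorsal striatum over motor cortex, 9 of 9 genes were called higher, where 21.4% of all genes tested were called higher and 22.0% lower, and the highest adjusted p was 3.54e-35. The median log2 difference of the 9 genes was 3.91 against 0.03 for all genes. Over hypothalamus 9 of 9 were also called higher (of all genes 25.5% higher and 30.7% lower), with a median of 4.79 against -0.04 and a highest adjusted p of 5.73e-113. These medians ranged from 3.85 to 3.96 and from 4.64 to 4.87 when any 1 library was left out.

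Between the striatal regions, dorsal over ventral, 9 of 9 were called higher (of all genes 14.6% higher and 14.4% lower), and the median log2 difference was 1.38 against -0.01. The members differed among themselves: 0.69 ± 0.10 (SE) for Gnal, 0.73 ± 0.14 for Arpp21, 0.97 ± 0.12 for Gng7 and 1.15 ± 0.10 for Adcy5 at the low end. Pde1b (1.38 ± 0.11), Ppp1r1b (1.51 ± 0.12), Rgs9 (1.89 ± 0.15) and Pde10a (2.09 ± 0.15) followed, and Rasd2 was the highest. The highest adjusted p was 1.49e-06. Without library 3a the median was 1.32 and without 8a it was 1.27, each with 9 of 9 called.

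Ventral striatum was higher than motor cortex in 9 of 9 genes (of all genes 22.2% higher and 21.5% lower; median 2.52 against 0.04) and higher than hypothalamus in 9 of 9 (19.7% and 23.9%; median 2.98 against -0.03). Rasd2 had the smallest of these differences over motor cortex, 1.10, and Gnal the smallest over hypothalamus, 1.66. Without 3a these medians were 2.59 and 3.08, and without 8a they were 2.64 and 3.13. Scaling by library size alone kept all of these directions and calls. It moved the median of all genes from 0.03 to -0.09 in dorsal striatum over motor cortex, from -0.04 to -0.41 over hypothalamus, from -0.01 to -0.17 over ventral striatum and from -0.03 to -0.24 in ventral striatum over hypothalamus. The share of called genes that were higher went with it, from 49.4% to 34.9%, from 45.4% to 19.3%, from 50.3% to 25.1% and from 45.2% to 20.6%.

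**Figure D3:**
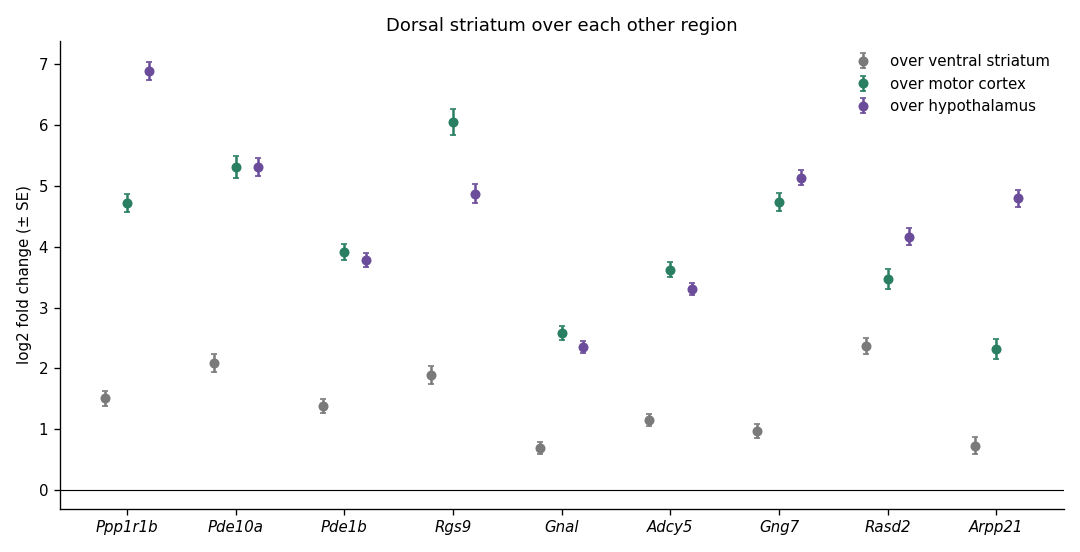
Fitted log2 difference of dorsal striatum over ventral striatum, motor cortex and hypothalamus for each of the 9 genes, averaged over genotypes, with bars for 1 SE. All 27 points are above 0 under every scaling, from 0.69 for Gnal over ventral striatum to 6.88 for Ppp1r1b over hypothalamus.

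Single libraries gave the same picture as counts of genes without overlap. Every dorsal striatum library was above every ventral striatum library in 8 of 9 genes, all but Arpp21 (5.93% of all genes tested were so), and above every motor cortex library in 9 of 9 (11.8%). Dorsal striatum was above hypothalamus in 9 of 9 (13.1%), ventral striatum above motor cortex in 8 of 9, all but Rasd2 (10.5%), and ventral striatum above hypothalamus in 9 of 9 (7.16%). The regions differ in number of libraries, so these shares are not alike between comparisons.

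Motor cortex and hypothalamus did not share an order across the 9 genes. In motor cortex over hypothalamus 4 were called higher (22.9% of all genes were) and 2 lower (25.4%), with a median log2 difference of 0.01 against -0.05 for all genes. Arpp21 (2.47, adjusted p = 1.96e-53), Ppp1r1b (2.16, adjusted p = 3.1e-38), Rasd2 (0.69, adjusted p = 4.43e-05) and Gng7 (0.40, adjusted p = 0.015) were higher in motor cortex. Rgs9 (-1.18, adjusted p = 3.23e-07) and Adcy5 (-0.32, adjusted p = 0.0197) were lower. Pde10a (0.01), Pde1b (-0.12, 95% interval -0.38 to 0.13) and Gnal (-0.23) were not called. Library size alone moved the median of all genes to -0.28 and the share of called genes that were higher from 47.4% to 25.6%. Under that scaling Pde10a turned to -0.22, Pde1b (-0.36) and Gnal (-0.47) were called lower and Gng7 (0.16) was no longer called. Adcy5 was not called without library 6d (-0.29), 7f (-0.29) or 8d (-0.30), Gnal was called without 5d (-0.28), and Pde10a ran from -0.07 (without 7d) to 0.11 with 1 library left out, and was below 0 without 5d, 7f, 1f or 2d as well.

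Whether the levels of the 9 genes differ with the labelled Hdc genotype was asked within each region. In dorsal striatum, libraries labelled KO did not differ from WT past the threshold in any of the 9 genes. Summed over the 9 genes the level was 14500 and 12000 CPM in WT libraries 1b and 2b, 11300, 12400 and 11400 CPM in het, and 12200 and 10800 CPM in KO libraries 7b and 8b. The KO sums thus overlapped those of WT and het. Arpp21 was at 1700 and 1800 CPM in WT, 1720, 1860 and 1500 CPM in het and 1450 and 1290 CPM in KO. Ppp1r1b was at 1240 and 1050 CPM in WT, 750, 1030 and 1010 CPM in het and 992 and 837 CPM in KO. Both KO libraries were below both WT libraries in 5 of 9 genes, Ppp1r1b, Pde1b, Adcy5, Gng7 and Arpp21, a pattern that 18.4% of all genes tested showed.

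The fitted log2 differences of KO over WT in dorsal striatum were below 0 in 9 of 9 genes, from -0.35 (SE 0.26, 95% interval -0.87 to 0.17) for Arpp21 to -0.08 (SE 0.29, -0.64 to 0.48) for Pde10a, but with library size alone 7 of 9 were above 0. Their median was -0.25, and 0.05 with library size alone, a scaling that moved the median of all genes to 0.28 and left the 9 genes 0.22 below it. The edgeR likelihood ratio test called 0 of 9 genes, where 0.387% of all genes tested were called. At an unadjusted p under 0.05 the count was 0 of 9, or 1 with the libraries of the region alone, where 7.94% of all genes passed in the fit to all libraries, and the quasi-likelihood test and DESeq2 each called 0. Adjusted p-values ran from 0.786 to 0.974. The median was -0.33 without 7b, -0.19 without 8b, -0.08 without 1b and -0.37 without 2b. Without 8b or 1b the difference of Pde10a was 0.04 or 0.16.

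Markers of other cell types were read in the same comparison. Of 12 oligodendrocyte markers 4 were called higher in KO than WT (Mobp, Cnp, Cldn11 and Trf, log2 differences 0.72 to 0.81), where 0.387% of all genes were called, and the list summed to 2160 and 1930 CPM in WT, 2920, 2760 and 2800 CPM in het and 2940 and 3770 CPM in KO. All 4 were called without 7b (0.82 to 1.05) and none without 8b (0.53 to 0.64), 1b (0.73 to 0.86) or 2b (0.66 to 0.92), so their direction held. Of the list of 12 the quasi-likelihood test called 0 (12 of all genes), DESeq2 2 (23 of all genes) and the fit to the libraries of the region alone 6 (48 of all genes). Library size alone called 11, but also 499 of all genes, all of them higher, and moved the median of all genes to 0.28. Of 12 spiny neuron markers 0 were called, with sums of 6140 and 5400 CPM in WT, 5410, 5600 and 5180 CPM in het and 5160 and 4640 CPM in KO. Penk was at -0.37 (95% interval -0.90 to 0.16). Of 6 astrocyte, 5 microglia and 4 endothelium markers 0 were called, and Slc1a2, Csf1r and Flt1 led these lists in abundance. The cortical and choroid plexus markers of 7b and 8b are given above. The part of any of these lists in the values of the 9 genes was not tested.

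In ventral striatum the KO libraries lay at either end of the region: 7a held 6040 CPM of the 9 genes, the highest, and 8a held 3010 CPM, the lowest. The WT libraries held 5700, 5550 and 3540 CPM and the het libraries 5200, 4880 and 4770 CPM. The fitted KO over WT differences were below 0 in 8 of 9 genes, from -0.36 for Arpp21, with Pde10a at 0.24, and their median was -0.14. edgeR called 0 of 9 (0.0801% of all genes were called), and 0 passed at an unadjusted p under 0.05 (5.40% of all genes did). The quasi-likelihood test and DESeq2 called 0 of 9, and 4 and 6 of all genes. These values rested on single libraries. Without 7a the fitted differences were -1.08 for Arpp21, -0.77 for Gng7 and -0.85 for Ppp1r1b. That fit has 8a as its lone KO library, the lowest in spiny neuron markers, and takes the spread from other groups, as does every fit here that leaves out 1 of 2 libraries. Without 8a the same genes were at 0.13, 0.22 and 0.08. The median was -0.59 without 7a with 9 of 9 below 0, 0.22 without 8a with 9 of 9 above 0, -0.35 without the WT library 3a and -0.02 without 1a or 2a, and Gng7 was at 0.00 without 1a. Adjusted p for Arpp21 with all libraries was 0.942.

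In motor cortex, with 1 WT library, the 9 genes summed to 975 CPM in WT, 955 and 902 CPM in het and 1010 and 933 CPM in KO. The median KO over WT difference was -0.04, and 0.04 with library size alone, -0.16 without 7d or 0.02 without 8d. The differences ran from -0.16 (Adcy5, 95% interval -0.65 to 0.32) to 0.35 (Rgs9, -0.59 to 1.28), and 4 of 9 were above 0, or 7 of 9 with library size alone. edgeR called 0 of 9 (0.0334% of all genes were called), with 0 at an unadjusted p under 0.05 (4.33% of all genes passed). The quasi-likelihood test and DESeq2 called 0 of 9, and 3 and 1 of all genes. The lone WT library was assumed to vary like the other groups.

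In hypothalamus the 9 genes summed to 687 to 742 CPM in WT, 697 to 766 CPM in het and 665 and 730 CPM in KO. Arpp21 was at 47.0, 52.8 and 49.6 CPM in WT, 50.0, 48.2 and 55.7 CPM in het, and 47.9 and 102 CPM in KO libraries 7f and 8f, so 1 library stood apart. Its fitted KO over WT difference was 0.59 (95% interval 0.10 to 1.09, adjusted p = 0.661). Without 7f it was 1.04, with 8f as the lone KO library, and without 8f it was -0.06. Ppp1r1b, at 7.55, 7.22 and 8.95 CPM in WT and 10.2 and 9.66 CPM in KO, was fitted at 0.33 (95% interval -0.24 to 0.89). edgeR called 0 of 9 genes in this comparison (0.167% of all genes were called), as did the quasi-likelihood test and DESeq2. At an unadjusted p under 0.05 the count was 1, Arpp21, where 6.01% of all genes passed. Library 8f is the one that held 567 CPM of cortical markers, a region in which Arpp21 was at 322 CPM, and the part of those markers in the value was not tested.

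**Figure D4:**
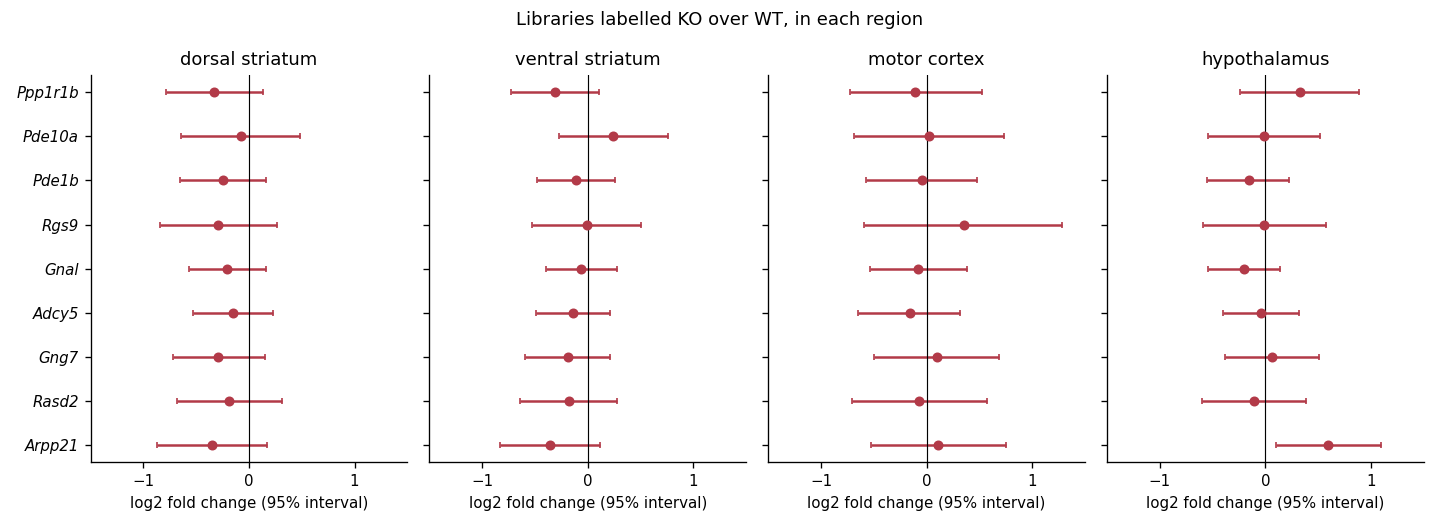
Fitted log2 difference of libraries labelled KO over WT for each of the 9 genes in the 4 regions, with 95% intervals. In dorsal striatum 9 of 9 points are below 0, but 2 of 9 with library size alone, and the single interval apart from 0 is that of Arpp21 in hypothalamus, at 0.59 with library 8f and -0.06 without it.

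The het libraries did not differ from WT or KO past the threshold in any of the 9 genes. For het over WT, edgeR called 0 of 9 genes in dorsal striatum (0.0868% of all genes were called), ventral striatum (0.0534%), motor cortex (0.0134%) and hypothalamus (0.0935%), with 0 at an unadjusted p under 0.05 in each and 0 by the quasi-likelihood test and DESeq2. Of all genes the quasi-likelihood test called 3, 2, 1 and 2 in these regions and DESeq2 4, 2, 1 and 2. An unadjusted edgeR p fell under 0.05 in 7.95%, 4.50%, 3.71% and 5.62% of all genes. The fit to the libraries of the region alone gave 1 at that threshold in dorsal striatum, with no share of all genes at hand for that fit. The median differences were -0.17 (-0.26 without 2b, -0.07 without 1b and 0.02 with library size alone), 0.03 (-0.19 without 3a and 0.17 without 1a), -0.02 (-0.14 without 5d and -0.08 with library size alone) and -0.03 (0.01 without 4f, 0.04 without 3f and -0.12 with library size alone). Under library size alone 0 of 9 were above 0 in motor cortex and hypothalamus, against 2 and 3 with TMM, and 7 of 9 in ventral striatum, against 5. In dorsal striatum all 9 were below 0, with 5 of 9 above 0 under library size alone, which moved the median of all genes there to 0.20 and the genes called from 8 higher and 5 lower to 51 and 5. For KO over het, edgeR called 0 of 9 in dorsal striatum (0.461%), ventral striatum (0.0467%), motor cortex (0.00668%) and hypothalamus (0.234%), and the quasi-likelihood test and DESeq2 called 0. Of all genes the quasi-likelihood test called 13, 1, 0 and 0 in these regions and DESeq2 19, 2, 0 and 7. Where 0 of all genes were called, 0 of 9 was certain. The median differences were -0.03 (0.08 with library size alone, -0.15 without 7b, 0.01 without 5b and 0.02 without 8b), -0.18 (-0.74 without 7a and 0.25 without 8a), 0.13 (0.03 without 7d) and 0.01 (-0.02 without 4f, -0.09 without 8f and 0.04 without 6f). Library size alone moved the median of all genes to 0.13 in motor cortex, where the 9 genes then had a median of 0.26, and the genes called in dorsal striatum from 50 higher and 19 lower to 73 and 9. In the edgeR fit to all libraries an unadjusted p fell under 0.05 in hypothalamus alone, for 1 gene (5.55% of all genes passed), Arpp21 at 0.55 (adjusted p = 0.822), and DESeq2 gave 0 there. The fit to the libraries of the region alone gave 1 in dorsal striatum, 1 in motor cortex and 2 in hypothalamus. No share of all genes is at hand for that fit, so these counts are not read as a result. Arpp21 in hypothalamus was at 1.00 without 7f, which leaves 8f as the lone KO library, and -0.10 without 8f.

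The difference of KO over WT was also compared between regions. For dorsal minus ventral striatum edgeR called 0 of 9 genes (0.00668% of all genes were called), with 0 at an unadjusted p under 0.05 (4.35% of all genes passed). The quasi-likelihood test and DESeq2 each called 0 of all genes, so 0 of 9 was certain there. The median of the 9 genes was -0.09. It was 0.19 with library size alone, -0.48 without 8a, 0.41 without 7a, 0.10 without 3a and 0.03 without 1b. For dorsal striatum minus hypothalamus edgeR, the quasi-likelihood test and DESeq2 each called 0 of 9. Of all genes edgeR called 0.154%, the quasi-likelihood test 2 genes and DESeq2 3. Among the 9 genes 1 passed at an unadjusted p under 0.05 (6.88% of all genes did). That gene was Arpp21, at -0.94 (95% interval -1.66 to -0.23, adjusted p = 0.483), with -0.55 under library size alone. It was -0.29 without 8f, the library with cortical markers, and -1.39 without 7f, which leaves 8f as the lone KO library of hypothalamus. The median was -0.11, and 0.26 with library size alone. It was -0.28 without 2b, -0.20 without 7b, -0.19 without 7f, -0.18 without 8f, -0.06 without 8b and -0.01 without 1b. All 9 were below 0 in this comparison, with 3 of 9 above 0 without 8b, 4 of 9 without 1b, 5 of 9 with a replicate block and 7 of 9 under library size alone, which moved the median of all genes to 0.35 and the genes called from 14 higher and 9 lower to 133 and 6. In dorsal minus ventral striatum 8 of 9 were below 0, with 9 of 9 above 0 without 7a, 4 of 9 with the replicate block (median -0.02) and 8 of 9 under library size alone, which moved the median of all genes to 0.24 and the genes called from 0 higher and 1 lower to 4 and 1.

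Other genes of cAMP and G protein signalling gave the setting for the 9. A list of 73 such genes was drawn from their known roles. Of these, 71 were in the files and 70 were tested. In dorsal striatum over motor cortex 36 of 70 were called higher and 24 lower (of all genes 21.4% and 22.0%), with a median log2 difference of 0.40. Over hypothalamus 42 were higher and 19 lower (25.5% and 30.7%), with a median of 0.72, and over ventral striatum 36 were higher and 20 lower (14.6% and 14.4%), with a median of 0.24. Ventral striatum over motor cortex gave 31 higher and 26 lower (22.2% and 21.5%), ventral striatum over hypothalamus 39 and 17 (19.7% and 23.9%), and motor cortex over hypothalamus 36 and 21 (22.9% and 25.4%). Genes of the list were called in both directions in every comparison of regions.

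Of 9 receptors tested, 7 were called higher in dorsal striatum than motor cortex and 1 lower, with a median of 5.21, the highest median of the 9 families in the list. The dopamine receptor gene Drd2 (8.15), the adenosine receptor gene Adora2a (7.38), the orphan receptor gene Gpr6 (6.99) and the dopamine receptor gene Drd1 (5.21) were among them. Others were lower than all of the 9 genes in this comparison: the muscarinic receptor genes Chrm4 (1.88) and Chrm1 (-0.28, not called), the histamine receptor gene Hrh3 (0.40) and the adenosine receptor gene Adora1 (-0.57, called lower). Over ventral striatum 9 of 9 receptors were higher, with Drd2 at 1.69, Drd1 at 1.12 and Chrm1 at 0.40, where the 9 genes span 0.69 to 2.37.

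Within families the other genes did not all share a direction with the member among the 9. Of 7 other adenylyl cyclases, 1 was called higher and 5 lower in dorsal striatum than motor cortex, with a median of -1.64 and Adcy1 at -2.34, while Adcy5 was at 3.62. Of 6 other alpha subunits, 1 was higher and 3 lower (median -0.31), while Gnal was at 2.58. Of 8 other beta and gamma subunits 3 were higher and 5 lower, with Gng2 at -1.97, while Gng7 was at 4.73. Of 7 other phosphodiesterases 4 were higher and 3 lower, with Pde1a at -3.26, while Pde1b was at 3.91. In each of these families genes were called in both directions.

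Regulators were read in the same comparison. Of 10 genes of RGS proteins, an RGS binding protein and the Gαolf chaperone, 8 were called higher and 2 lower (median 1.12). Of 8 genes of protein kinase A, an inhibitor and an anchor of it 3 were higher and 3 lower (median -0.03). Of 9 phosphatase subunits and inhibitors 6 were higher and 1 lower (median 0.62). Of 6 genes of a small G protein, regulators of small G proteins and CREB factors 3 were higher and 1 lower (median 0.20).

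**Figure D5:**
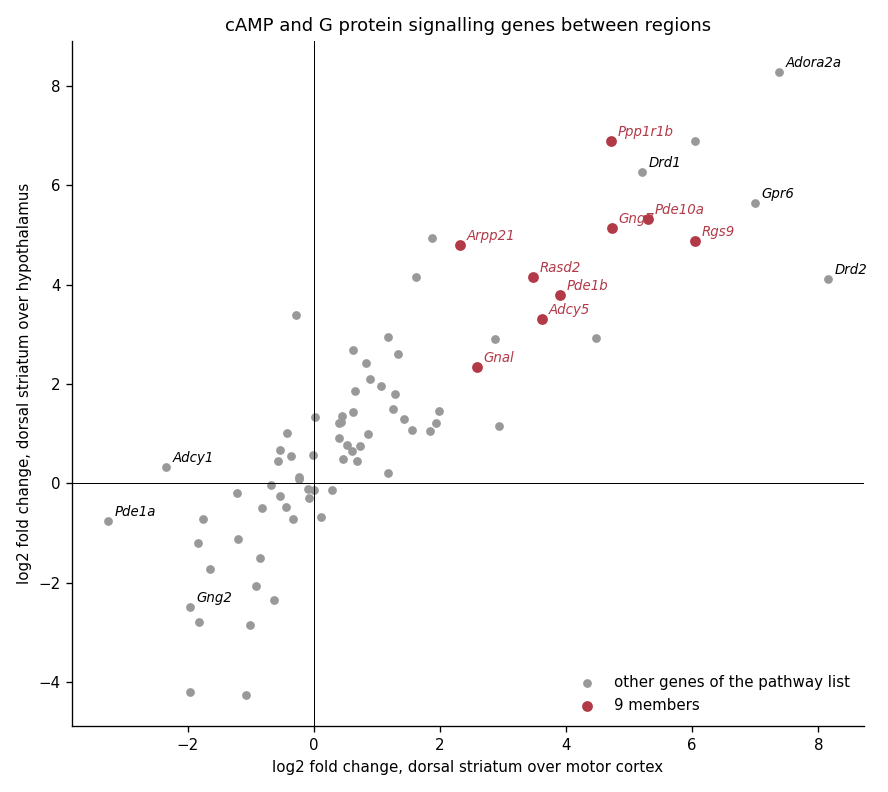
Fitted log2 difference of dorsal striatum over motor cortex (x axis) against dorsal striatum over hypothalamus (y axis) for the 9 genes and 70 other genes of cAMP and G protein signalling. The axes share the dorsal striatum libraries, and the 9 genes lie at 2.32 to 6.05 on x and 2.35 to 6.88 on y.

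Between genotypes few of the 70 were called. KO over WT gave 0 in dorsal striatum, ventral striatum and motor cortex by edgeR, with 7, 3 and 2 at an unadjusted p under 0.05 (of all genes 7.94%, 5.40% and 4.33%) and 0 by the quasi-likelihood test and DESeq2. At that unadjusted threshold 9 of 70 passed in hypothalamus (12.9%, against 6.01% of all genes) and 10 of 70 in dorsal striatum minus hypothalamus (14.3%, against 6.88%). In hypothalamus KO over WT gave 1, the muscarinic receptor gene Chrm1 at 1.24 ± 0.26 (SE, adjusted p = 0.00269), and KO over het gave Chrm1 at 1.28 ± 0.26 (adjusted p = 0.00167). Without 8f, the library with cortical markers, these were 0.20 and 0.24 and not called, and neither was called by the quasi-likelihood test or DESeq2. The call of Chrm1 over WT was also lost without 1f or 2f and with the libraries of the region alone. In dorsal striatum KO over het gave Gng2 at 1.24 ± 0.29 (adjusted p = 0.00898), which was 0.08 without 7b, 1.17 and not called without 5b and 1.87 without 8b, and Rgs2, a regulator of G protein signalling, fell by 0.89 on the log2 scale (adjusted p = 0.0111). Neither passed the quasi-likelihood test, and leaving out 4b, 5b, 7b or 8b ended the call of Rgs2, at values from -0.93 to -0.75. DESeq2 called Rgs2 as well (adjusted p = 0.0451) and did not call Gng2.

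Across all 28 libraries each of the 9 genes followed the others. Pearson correlations of log2 CPM of each with the mean of the other 8 ran from 0.891 for Arpp21 to 0.992 for Pde10a and Pde1b, and these span 4 regions, so they mostly describe region. Among the other genes most like the mean of the 9 over 28 libraries were Sez6 (0.992), Cd4 (0.992), Tomm70a (0.991), Sh3rf2 (0.991), Dgkb (0.99), Pde7b (0.989), Rarb (0.989), Bcr (0.988) and Ptpn5 (0.987). Within groups, over the 15 striatal libraries after each group's mean was taken off, which in groups of 2 leaves mirrored values, the correlations of each gene with the other 8 ran from 0.839 for Gnal to 0.975 for Rgs9. Most like the 9 on that measure were Dgkb (0.989), Dgkh (0.98), Camk4 (0.969), Gm45837 (0.969), Hpca (0.968), Anks1b (0.965), Penk (0.96), Cyld (0.959), Sptb (0.957) and Kcnab1 (0.955). A few ventral striatum libraries weigh most in these correlations. The mean log2 deviation of the 9 genes was -0.53 in 3a and 0.485 in 7a, and in dorsal striatum at most 0.127 (1b) and -0.127 (2b). The part of spiny neuron content in these correlations was not tested.

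In ventral striatum the 9 genes and the spiny neuron markers deviated from their group's mean in the same direction in 7a and 3a. The mean deviation of the 9 genes was 0.485 in 7a, where that of the markers was 0.492, and -0.53 in 3a, where that of the markers was -0.353. In a group of 2 libraries, such as 7a and 8a, the deviations mirror each other by construction, so 8a adds no separate value. Of 9 genes, 9 were above their group's mean in 7a, 1a, 2a and 4a, and 0 in 3a. The ratio of the summed 9 genes to the summed 12 spiny neuron markers ran from 2.09 to 2.37 in dorsal striatum and from 1.79 to 2.01 in ventral striatum. It was 1.25 to 1.46 in motor cortex and 1.55 to 1.91 in hypothalamus. By genotype in dorsal striatum the ratio was 2.29 ± 0.0914 in WT (SD, n = 2), 2.17 ± 0.0692 in het (n = 3) and 2.35 ± 0.0385 in KO (n = 2), and the ranges of WT (2.23 to 2.36) and KO (2.32 to 2.37) overlapped while that of het (2.09 to 2.22) lay below both. The highest het library, 5b at 2.22, was next to the lowest WT library, 2b at 2.23. Differences of this ratio between genotypes were not tested.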

How the data were processed

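RNA of 28 dissected brain samples was measured by sequencing. The deposited files hold a read count per gene, which the authors made from the reads: per the processing notes of the submitters, Trimmomatic 0.32, Bowtie2 2.2.3, STAR 2.3.1z8 on GRCm38, SAMtools 0.1.19 and HTSeq 0.6.1p1. Rows of no gene, 45.78% to 55.22% of tallied reads, were dropped. Whether counting used the strand is not stated. Symbols were matched by Ensembl identifier; of 151 list genes 149 matched, and Gpr52 and Pde2a were not analysed here. Genes above 1 CPM in at least 2 libraries (14979) were fitted with glmFit and glmLRT of edgeR 4.0.16 (R 4.3.3, limma 3.58.1), with TMM scaling, a mean for each of 12 groups and Benjamini-Hochberg adjustment over all genes; intervals are 95% from the fit's SE. Correlations used log2 CPM with a prior count of 2. Alternatives were the quasi-likelihood test, DESeq2 1.42.0, its size factors, library size alone, no filter, the libraries of 1 region alone, a replicate block and leaving out each library. The fit was tested on simulated data. The members and lists were chosen with earlier results of these data known. Of 8 marker lists and 9 pathway lists, named were the members, pathway genes called between genotypes, the 3 highest and 3 lowest in dorsal striatum over motor cortex, Drd1, Drd2 and Adora2a, the most abundant marker of most lists and genes among the 10 most similar; the 4 oligodendrocyte genes, Adora1, Chrm4 and Hrh3 were named after their values were seen. Tables and figures used Python 3.11.15, numpy 2.4.6, pandas 2.3.3 and matplotlib 3.10.9.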

Additional observations from a re-analysis of the deposited data

Results flagged for a closer look

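For some genes the libraries labelled KO were all on one side of another genotype in 1 region and all on the other side in another region, and none of these differences was called. For Ppp1r1b, both KO libraries were above all WT libraries in hypothalamus, with a log2 difference of 0.33, and below the WT library in motor cortex, with -0.11. They were also below both WT libraries in dorsal striatum (-0.33, or -0.03 with library size alone), and the tested difference of dorsal striatum minus hypothalamus was -0.65 (95% interval -1.38 to 0.08), not called. For Gng7 the KO libraries were above WT in motor cortex (0.10) and below it in dorsal striatum (-0.29, or 0.01 with library size alone). For Arpp21 they were above WT in motor cortex (0.11) and below it in dorsal striatum (-0.35, or -0.07 with library size alone), and above het in motor cortex (0.13) and below it in dorsal striatum (-0.30). For Rasd2 they were above het in motor cortex (0.13) and below it in hypothalamus (-0.20). With groups of 1 to 3 libraries, many genes lie all on one side within a single region. The share of genes on opposite sides in a pair of regions is not at hand. Of all genes, KO libraries were all above WT in 31.8% and all below in 33.7% in motor cortex, all below in 18.4% in dorsal striatum and all above in 11.3% in hypothalamus, and all above het in 17.3% in motor cortex, all below in 10.5% in dorsal striatum and in 9.10% in hypothalamus. Apart from that of Ppp1r1b between dorsal striatum and hypothalamus, these differences between regions were not tested.

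The tested difference of KO over WT between dorsal striatum and hypothalamus was -1.45 for Chrm1 (edgeR adjusted p = 0.0448), a value that was -0.41 without library 8f, and 4.79 for Hdc. The call of Chrm1 was lost by the quasi-likelihood test, DESeq2, library size alone and the replicate block. It was also lost without library 8f, 1f, 2f, 2b or 8b, of which 8f, 2b and 8b each leave a lone library in their group.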

How the results depend on the processing

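All 9 genes kept their direction and their call in the 5 comparisons that involve a striatal region, under every alternative run. Between genotypes the count of the 9 called was 0 with all libraries under every alternative. With 1 library left out it ran from 0 to 3 for KO over WT in ventral striatum, and from 0 to 1 in hypothalamus, for KO over het in hypothalamus and for dorsal striatum minus hypothalamus. The counts above 0 come from fits with a lone KO library, and no share of all genes is at hand for them. With a replicate block by library number the median of dorsal striatum minus hypothalamus was 0.01. Whether library numbers pair samples was not settled: correlations of deviations averaged 0.007 over 34 pairs with the same number and -0.004 over 56 with another, and groups of 2 give mirrored deviations.

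With library size alone KO over WT in dorsal striatum was 0.22 for Pde10a, 0.05 for Pde1b, 0.01 for Rgs9, 0.09 for Gnal, 0.14 for Adcy5, 0.01 for Gng7 and 0.11 for Rasd2, and levels per kilobase were 186 for Adcy5 and 254 for Gng7. Pde10a in motor cortex over hypothalamus was -0.22 with library size alone, -0.09 with the block and -0.07 to 0.11 with 1 library left out (-0.02 without 5d or 2d, -0.03 without 7f and -0.01 without 1f). Leaving out 1 library gave KO over WT values from -0.29 to 0.16 for Pde10a (0.04 without 8b) in dorsal striatum, -1.08 to 0.13, -0.77 to 0.22 and -0.85 to 0.08 for Arpp21, Gng7 and Ppp1r1b in ventral striatum, and -0.06 to 1.04 for Arpp21 in hypothalamus (KO over het, -0.10 to 1.00).

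Of the other 70 pathway genes, KO over WT in dorsal striatum called 2 with library size alone (left-out libraries, 0 to 1), in motor cortex 2 with the libraries of the region alone, and in ventral striatum 0 to 6 with 1 library left out. In hypothalamus it called 0 by the quasi-likelihood test, DESeq2 and the region alone (left-out libraries, 0 to 2). KO over het in dorsal striatum called 0 by the quasi-likelihood test and 1 by DESeq2, library size alone and the region alone (left-out libraries, 0 to 2), in ventral striatum 0 to 1 with 1 library left out, and in hypothalamus 0 by the quasi-likelihood test and DESeq2 (left-out libraries, 0 to 1). Dorsal striatum minus hypothalamus called 0 by the quasi-likelihood test, DESeq2, library size alone and the block (left-out libraries, 0 to 1). The cause was not tested for any of these changes.

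Over all genes, KO over WT in dorsal striatum called 58, against 12 by the quasi-likelihood test, 23 by DESeq2 and 499 with library size alone. In hypothalamus it called 25, against 4, 5 and 16. KO over het in dorsal striatum called 69, against 13, 19 and 82, and in hypothalamus 35, against 0, 7 and 34.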
